A study of Mus musculus with 8 samples.

Results

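The basonuclins Bnc1 and Bnc2 are 2 of the 55414 Ensembl genes counted in every library, and both were among the 17721 genes abundant enough to be tested. The pair was selected on the values of Bnc1 in the comparison described here, where it was about doubled with little spread between replicates, and Bnc2 was added as its paralogue. The fold changes of both genes are therefore given as a description, without a test. Bnc1 carries the identifier ENSMUSG00000025105 and lies on chromosome 7, and Bnc2 carries ENSMUSG00000028487 and lies on chromosome 4.

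The libraries came from dorsal root ganglia (DRG) dissected at E18.5, the clusters of sensory neuron cell bodies and glia that lie beside the spinal cord. In 4 AD1 OE libraries the embryos were AdvillinCre/+;Rosa26Dach1/+, so that Cre expressed from the sensory neuron gene Advillin removed a stop cassette in front of a Dach1-IRES-EGFP insert at Rosa26. The 4 Control libraries came from Advillin+/+;Rosa26Dach1/+ embryos, which carried the same Rosa26 allele without Cre, and the Rosa26Dach1 mice were kept on a mixed C57Bl/6J and CD1 background. The labels do not say whether each library was 1 embryo, so p-values measure only the spread between these libraries, and in whole ganglia fewer cells of a type and less RNA per cell cannot be told apart.

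Basonuclins are nuclear zinc finger proteins with paired C2H2 fingers, a fold in which cysteines and histidines hold a zinc ion. Bnc1 is best known from basal keratinocytes, germ cells and mesothelium, and has been linked to transcription of ribosomal RNA genes as well as of protein-coding genes. Bnc2 is best known from mesenchymal cells and fibroblasts, with roles in craniofacial development and pigmentation.

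The 2 genes differ along much of their coding sequence. The longest annotated coding sequences (GENCODE M21, GRCm38) were 2973 bases for Bnc1 and 3384 bases for Bnc2, each with 3 matches to a C2H2 pattern. The pattern sets the spacing between cysteines and histidines, so fingers spaced otherwise were not counted. Over 2822 aligned bases, 1858 were identical (65.8%), and the longest run that the transcripts of both genes shared exactly was 17 bases. The most alike gapless stretch of 60 bases, shown because it is where a read could most easily be confused, held 51 identical bases (85.0%) and overlapped none of the C2H2 matches. It covered coding bases 237 to 296 of Bnc1 and 558 to 617 of Bnc2, and capitals mark the bases that differ.
Bnc1: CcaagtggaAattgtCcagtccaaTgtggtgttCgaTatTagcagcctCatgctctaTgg
Bnc2: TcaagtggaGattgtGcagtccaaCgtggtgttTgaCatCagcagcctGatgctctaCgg
Of the 50-base words in Bnc1 transcripts, 50 of 4597 (1.09%) occurred in another gene, in each case the pseudogene 4833418N17Rik. That pseudogene overlaps 98 exon bases of Bnc1 on the opposite strand and held 1 to 8 counts per library. In Bnc2 transcripts, 43 of 8727 such words (0.493%) occurred in another gene. The pseudogene Gm12421, inside the span of Bnc2 but sharing 0 exon bases with it, held 0 to 2 counts per library.

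The start windows listed for the 2 genes differed in base composition, but the furthest annotated start of Bnc2 was not examined. The windows below, from RefSeq on GRCm38.p6, run from 250 bases before to 50 bases after the listed start, with each CG in capitals. They are shown because the 2 paralogues differed in response, and a link between window and response was not tested. Both genes are on the minus strand, with the Bnc1 window at chr7:81992250-81992549 and the Bnc2 window at chr4:84610148-84610447.
Bnc1: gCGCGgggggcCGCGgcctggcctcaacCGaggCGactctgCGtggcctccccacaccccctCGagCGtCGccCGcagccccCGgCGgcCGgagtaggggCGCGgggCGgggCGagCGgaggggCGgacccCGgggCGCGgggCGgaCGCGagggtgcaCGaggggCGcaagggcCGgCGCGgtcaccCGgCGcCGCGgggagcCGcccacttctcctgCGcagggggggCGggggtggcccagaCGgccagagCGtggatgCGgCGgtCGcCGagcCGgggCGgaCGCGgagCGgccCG
Bnc2: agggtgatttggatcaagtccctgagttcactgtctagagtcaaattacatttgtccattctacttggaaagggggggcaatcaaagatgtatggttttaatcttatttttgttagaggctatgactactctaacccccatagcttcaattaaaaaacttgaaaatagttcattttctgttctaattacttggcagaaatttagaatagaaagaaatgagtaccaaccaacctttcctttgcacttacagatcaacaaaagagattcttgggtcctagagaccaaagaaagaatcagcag
The Bnc1 window was 83.3% G or C and held 50 CG dinucleotides, more than 99.1% of the 32851 windows in the table, whose median was 7. It held 6 matches to GGGCGG or its reverse complement CCGCCC, a motif found in 35.7% of all windows. The Bnc2 window was 36.3% G or C, held 0 CG dinucleotides and 0 matches to that motif, and starts 65.8 kb inside the furthest annotated start of the gene. Neither window held TATAAA on either strand, which 13.6% of windows did.

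Total counts ranged from 22339059 to 44025625 per library. The Xist and Y-linked levels put AD1 OE replicates 1, 2 and 4 and Control replicate 4 with male libraries, and AD1 OE replicate 3 and Control replicates 1, 2 and 3 with female libraries, so sex was unequal between the groups. Dach1, the overexpressed transcription factor, averaged 32.6 ± 1.64 CPM, the gene's counts relative to the TMM-scaled library total (SD, n = 4), in Control and 95.9 ± 5.28 in AD1 OE. Avil, the gene into which Cre was inserted, averaged 892 ± 35.1 in Control and 464 ± 12.03 in AD1 OE. Both differences passed edgeR's quasi-likelihood test (log2 fold change 1.56 and −0.94, adjusted p = 1.77e-08 and 1.98e-07).

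Bnc1 was higher in every AD1 OE library than in any Control library. The raw Bnc1 counts were 951, 1417, 1163 and 1648 in Control replicates 1 to 4, and 4428, 2225, 2512 and 2492 in AD1 OE replicates 1 to 4. Scaled to library size with TMM factors, Bnc1 stood at 42.8, 44.1, 45.7 and 46.5 CPM in Control and at 100.1, 99.1, 96.1 and 89.7 CPM in AD1 OE. The lowest AD1 OE library lay far above the highest Control library, so the groups did not overlap. Complete separation in that direction was seen in 5.69% of all tested genes. The mean was 44.8 ± 1.67 CPM (SD, n = 4) in Control and 96.2 ± 4.71 CPM in AD1 OE, which gives 1.10 ± 0.05 (SE) as log2 fold change, or 2.15-fold.

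Bnc2 differed far less. Its raw counts were 1188, 2070, 1520 and 2294 in Control and 3551, 1569, 1623 and 1981 in AD1 OE. On the CPM scale Bnc2 stood at 53.5, 64.5, 59.7 and 64.8 in Control and at 80.3, 69.9, 62.1 and 71.3 in AD1 OE. AD1 OE replicate 3, at 62.1 CPM, lay below Control replicates 2 and 4, so the groups overlapped, and AD1 OE replicate 1 was the highest of all. The mean was 60.6 ± 5.30 CPM (SD, n = 4) in Control and 70.9 ± 7.46 CPM in AD1 OE, which gives 0.23 ± 0.08 (SE) as log2 fold change, or 1.17-fold.

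**Figure D1:**
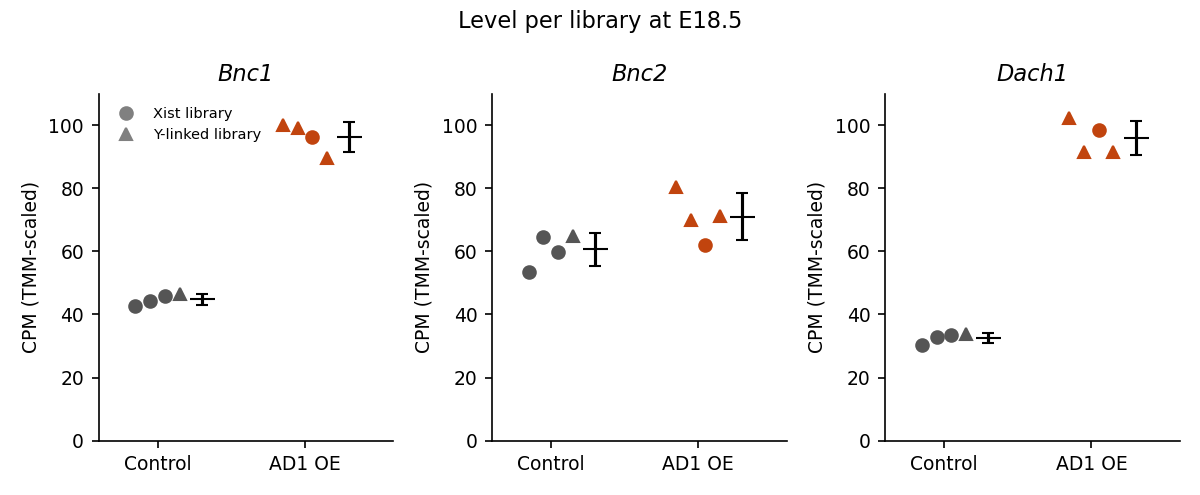
Level of Bnc1, Bnc2 and Dach1 in CPM (vertical axis) in each of 4 Control and 4 AD1 OE libraries, with circles for female and triangles for male libraries and bars for mean ± SD. Bnc1 and Dach1 separate the groups completely, while the Bnc2 values of the groups overlap between 62.1 and 64.8 CPM.

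The coefficient of variation of Bnc1 between replicates was near the median of genes of its level. The coefficient of variation was 3.72% in Control and 4.90% in AD1 OE, where counting alone gives between 1.5% and 3.24% per library. Among 3123 genes within 1.5-fold of its level, the median was 3.99% in Control and 4.47% in AD1 OE, so Bnc1 lay at the percentiles 45.1 and 56.7. The spread of Bnc2 was 8.75% in Control and 10.5% in AD1 OE, above 92.4% and 95.5% of 3149 genes of like level. Bnc2 was thus the more variable paralogue in both groups.

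Within each sex, the difference in Bnc1 had about the same size. In female libraries Bnc1 was at 96.1 CPM (n = 1) in AD1 OE and 44.2 CPM (n = 3) in Control, a log2 ratio of 1.12. In male libraries it was at 96.3 CPM (n = 3) and 46.5 CPM (n = 1), a log2 ratio of 1.05. Bnc2 gave log2 ratios of 0.07 in female and 0.19 in male libraries, both smaller than the pooled value, and 0.13 with sex as a term in the model. These sex-matched sets hold a single library on one side and allow no test.

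Across the genome, 455 of 17721 tested genes (2.57%) passed both limits, an adjusted p below 0.005 and a log2 difference above 0.25 in size, and are referred to as called. Of these, 139 (0.784% of tested genes) were higher and 316 (1.78%) lower in AD1 OE. The choice of Bnc1 used this comparison, so its place in the order of increases is a description only. Just above it among called increases stood Gm13373 (1.17 on the log2 scale) and Ano2 (1.13), a calcium-activated chloride channel, and just below it Rasl11a (1.10) and Gm9866 (1.05). These 4 genes averaged between 5.58 and 25.3 CPM in AD1 OE, well under Bnc1.

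**Figure D2:**
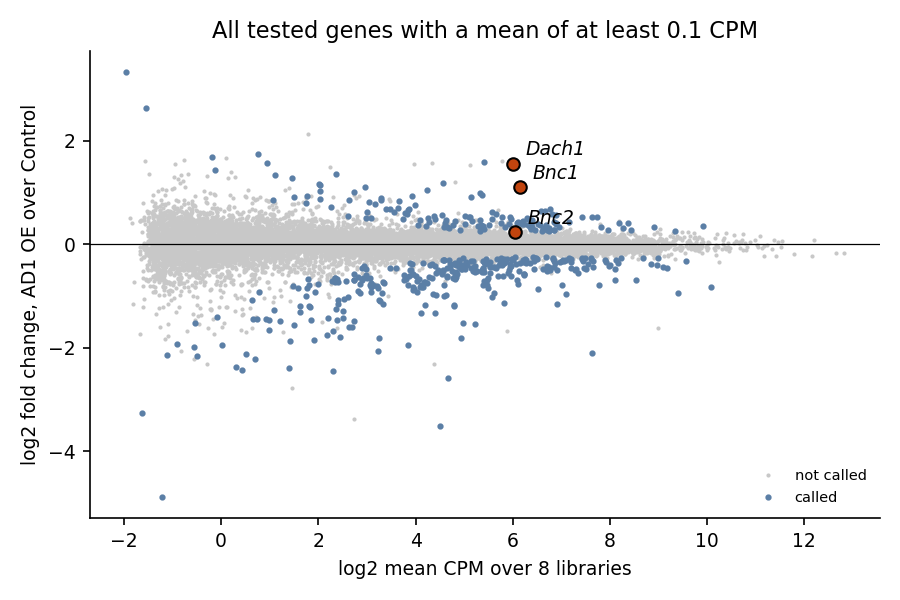
Log2 fold change of AD1 OE over Control (vertical axis) against log2 mean CPM over 8 libraries (horizontal axis), with called genes in blue and the others in grey. Bnc1 is at 1.10 and Dach1 at 1.56, and Bnc2, at 0.23, lies at the upper edge of the grey band.

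Which basonuclin is the more abundant transcript depends on the length used. GENCODE M21 gives Bnc1 1 transcript of 4646 bases, and gives Bnc2 22 transcripts, 16 of them coding, whose merged exons span 8174 bases. Per kilobase of merged exon, Bnc1 stood at 9.64 ± 0.36 CPM per kb (SD, n = 4) in Control and 20.7 ± 1.02 in AD1 OE, and Bnc2 at 7.42 ± 0.65 and 8.67 ± 0.91. The ratio of Bnc2 to Bnc1 was thus 0.71 to 0.83 across Control libraries and 0.367 to 0.456 across AD1 OE libraries. With the longest transcript of each (4133 bases for Bnc2), the ratio was 1.40 to 1.64 in Control and 0.726 to 0.901 in AD1 OE, so Bnc2 led in Control and Bnc1 in AD1 OE. With the mean coding transcript of Bnc2, which includes short fragments, the ratio was 3.90 to 4.56 in Control and 2.02 to 2.50 in AD1 OE, so Bnc2 led in both groups. The fall of the ratio is the same on each length, since a length cancels between groups.

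The other tested C2H2 zinc finger factors, 76 of a list of 94, included 5 called genes. Of these, 2 rose and 3 fell (6.58% called, against 2.57% of all tested genes). Over the list the median log2 fold change was 0.05, against 0.00 over all tested genes. Of the 76, 15 (19.7%) had an unadjusted p under 0.05, against 18.6% of all tested genes. Ikzf1, a lymphoid and neural transcription factor, rose from 8.49 ± 1.04 to 13.6 ± 0.357 CPM (log2 fold change 0.68, edgeR adjusted p = 0.000383), and Bcl11b, known for neuronal and T cell differentiation, from 26.2 ± 1.91 to 38.2 ± 1.22 CPM (0.54, adjusted p = 0.000136). Klf5, a Krüppel-like factor of proliferating epithelia, fell from 55.3 ± 1.12 to 35.2 ± 2.44 CPM (−0.66, adjusted p = 1.28e-05). Insm2 fell by 0.83 on the log2 scale (edgeR adjusted p = 0.000145). Prdm8, a PR domain factor of neurons, fell by 0.53 (edgeR adjusted p = 0.00144), a call that was lost when any of 5 single libraries was left out.

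Among 334 tested genes named Zfp with a number, 1 was called (0.299%, against 2.57% of all tested genes). This was Zfp469, which rose by 0.40 on the log2 scale (edgeR adjusted p = 0.000765). Of the 334, 36 (10.8%) had an unadjusted p under 0.05, against 18.6% of all tested genes. Among 35 Zbtb genes 0 were called by edgeR, DESeq2 or limma. Of the 35, 3 (8.57%) had an unadjusted p under 0.05, against 18.6% of all tested genes. With 2.57% of all tested genes called by edgeR, 0 of 35 is near the background. The most abundant, Zbtb20 and Zbtb4, had log2 fold changes of −0.11 and 0.00.

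**Figure D3:**
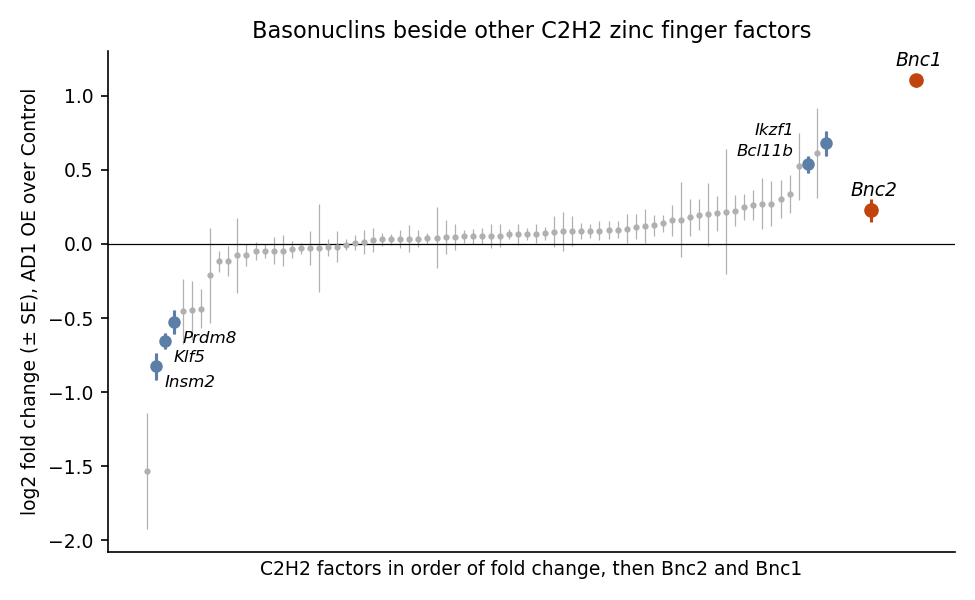
Log2 fold change of AD1 OE over Control with its SE (vertical axis) for 76 tested C2H2 factors in order of size, followed by Bnc2 and Bnc1, with called factors in blue. Bnc1, at 1.10, was selected on this comparison, so its place above the list is a description only. The largest called increase in the list is Ikzf1 at 0.68.

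Because Bnc1 has been linked to ribosomal RNA transcription, 26 genes of RNA polymerase I transcription and rRNA processing were examined. The libraries were made from mRNA, so ribosomal RNA transcription itself was not measured. Their log2 fold changes lay between −0.15 and 0.14 with a median of 0.01. By edgeR, DESeq2 or limma 0 were called. Of the 26, 1 (3.85%) had an unadjusted p under 0.05, against 18.6% of all tested genes. With 2.57% of all tested genes called by edgeR, 0 of 26 is near the background. Ubtf, the polymerase I factor, averaged 119 ± 4.90 CPM in Control and 122 ± 8.08 in AD1 OE, and Ncl, encoding nucleolin, 390 ± 5.15 and 401 ± 14.4. Of 12 extracellular matrix genes, relevant because Bnc2 is expressed in matrix-producing fibroblasts, 1 was called (8.33%, against 2.57% of all tested genes). Of the 12, 5 (41.7%) had an unadjusted p under 0.05, against 18.6% of all tested genes, and the median log2 fold change was 0.12. Col6a3, a collagen VI chain, rose from 226 ± 10.2 to 271 ± 14.0 CPM (0.26, edgeR adjusted p = 0.00494), a call at the threshold that was lost in 9 of 16 other fits.

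Both basonuclins mark cell types other than neurons, so lists of such markers were read in the same libraries. Isl1, a sensory neuron gene, averaged 205 ± 5.95 CPM in Control and 208 ± 7.58 in AD1 OE. Sox10, a glial gene, averaged 111 ± 11.5 and 111 ± 7.72. Of 10 pan-sensory neuron genes and 9 glial genes, 0 were called by edgeR, DESeq2 or limma. Without a filter on low counts, edgeR called 0 of the neuron genes and 1 of the glial genes. With 2.57% of all tested genes called by edgeR, 0 is near the background for lists of this size. An unadjusted p under 0.05 was seen for 3 (30.0%) and 2 (22.2%), against 18.6% of all tested genes. Median log2 fold changes were −0.01 and 0.00, with ranges from −0.153 (Snap25) to 0.138 (Elavl4) and from −0.261 (Fabp7) to 0.094 (Erbb3). Prph and Stmn2, neuronal cytoskeletal genes, had log2 fold changes of −0.03 and −0.03, and Mbp, a myelin gene, of 0.00.

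Of 11 genes of basal keratinocytes, where Bnc1 is best known, 7 were tested and 0 called by any of these 3 tools. Without a filter on low counts, edgeR called 2 genes of the list. Of the 7, 2 (28.6%) had an unadjusted p under 0.05, against 18.6% of all tested genes. With 2.57% of all tested genes called by edgeR, 0 of 7 is near the background. Their summed level was 76.7 to 91.6 CPM in Control and 81.2 to 95.2 in AD1 OE. Itgb4, an integrin gene that other cells also express, gave 40.2 ± 1.52 CPM of it in Control and 43.2 ± 3.44 in AD1 OE. Log2 fold changes of the 7 tested genes ranged from −1.10 (Dsp) to 0.36 (Trp63), with a median of −0.01. The defining keratins were near 0, except in AD1 OE replicate 1. Krt5 held 81 counts there and 0 to 5 in the other 7 libraries, Krt14 held 71 against 3 to 10, and Krt15 held 137 against 6 to 13. Bnc1 was at 89.7 to 99.1 CPM in the other 3 AD1 OE libraries, and its log2 fold change without AD1 OE replicate 1 was 1.08. Without that library the log2 fold change of Bnc2 was 0.16. The part of keratinocyte content in the Bnc1 and Bnc2 differences was not tested.

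Of 10 mesothelium genes, 7 were tested and 1 was called (14.3%, against 2.57% of all tested genes). Without Control replicate 1, or without a filter on low counts, 4 were called. Of the 7, 4 (57.1%) had an unadjusted p under 0.05, against 18.6% of all tested genes, and the median log2 fold change was −0.64. Lrrn4 fell from 8.53 ± 0.462 to 5.48 ± 0.394 CPM (−0.64, edgeR adjusted p = 0.000515), and Msln, encoding mesothelin, averaged 8.59 ± 3.34 CPM in Control and 12.4 ± 4.06 in AD1 OE. The keratins of simple epithelia were not called, with log2 fold changes of −2.78 for Krt8 (edgeR adjusted p = 0.0233), −1.01 for Krt19 (0.0128), −1.37 for Krt18 (0.068) and −0.40 for Krt7 (0.272). Krt8 was at 0.27 CPM in Control replicate 1, at 3.98 to 7.55 in the other Control libraries and at 0.401 to 0.971 in AD1 OE. Krt18 was at 0.315, 1.26 to 1.41 and 0.252 to 0.624 in the same order. The summed level of the mesothelium list was 24.3 to 51.8 CPM in Control and 24.9 to 32.4 in AD1 OE. Bnc1 lay between 42.8 and 46.5 CPM in those Control libraries, and the part of mesothelial content in its level was not tested. Of the fibroblast, meninges and melanocyte lists 12, 8 and 3 genes were tested, and 0 were called by edgeR, DESeq2 or limma, with 5, 2 and 0 at an unadjusted p under 0.05. Of all tested genes, 3296 (18.6%) had such a p, and 41.7% of the fibroblast genes. The fibroblast sum was 5327 to 6487 CPM in Control and 6242 to 7034 in AD1 OE, with a median log2 fold change of 0.14. Col1a2 and Col3a1, its most abundant members, had log2 fold changes of 0.19 and 0.16, and the list ranged from −0.155 (Dcn) to 0.244 (Twist2). The part of fibroblast content in the Bnc2 difference was not tested. The median was 0.17 for the meninges list, led by Ptgds (0.04) and Slc6a13 (0.17), and 0.18 for the melanocyte list, led by Tyrp1 (−0.16) and Mitf (0.29).

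The genes beside the basonuclins were read next. Of the 3 nearest tested genes on each side of each member, 12 in all, 0 were called by edgeR, DESeq2 or limma. Unadjusted p-values under 0.05 were seen for 0 near Bnc1 and 2 near Bnc2, against 18.6% of all tested genes. With 2.57% of all tested genes called, a count of 0 among 12 is near the background. Hdgfl3, 32.2 kb from Bnc1 and the nearest, averaged 89.6 ± 2.46 CPM in Control and 92.2 ± 3.56 in AD1 OE. The 6 genes around Bnc1, namely Gm45867, Tm6sf1, Hdgfl3, Sh3gl3, Adamtsl3 and Saxo2, had log2 fold changes from −0.07 to 0.12. Around Bnc2, the genes Snapc3, Psip1, Ccdc171, Cntln, Sh3gl2 and Adamtsl1 ranged from −0.32 (Ccdc171, adjusted p = 0.177 by edgeR) to 0.13 (Cntln, adjusted p = 0.118 by edgeR).

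**Figure D4:**
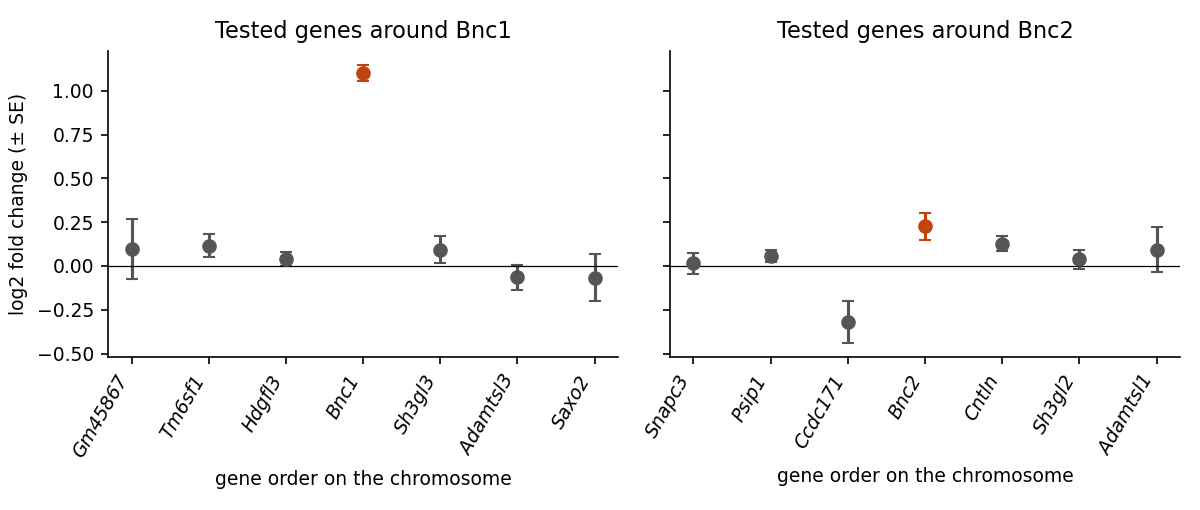
Log2 fold change of AD1 OE over Control with its SE (vertical axis) for the 3 nearest tested genes on each side of Bnc1 (left) and Bnc2 (right), in chromosome order. Bnc1, at 1.10, was selected on this comparison, and its neighbours lie between −0.07 and 0.12.

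The gene whose level was most like that of Bnc1 over the 8 libraries was Dach1, with Pearson's r of 0.997 on log2(CPM + 1), among 15517 genes of at least 1 CPM. Reg3b and Shisal1 followed at 0.990, and Afap1l1 and Ppm1j at 0.986. The libraries form 2 groups that both genes separate, so these values describe the difference between groups, and all 5 genes were themselves called higher. On deviations from the group means, which leave that difference out, the most alike were Ndrg1 (0.974), Gm29675 (0.971), Tstd3 (0.967), Ube2e2 (0.965) and Gpr149 (0.958), of which Gpr149, a receptor gene, was itself lower in AD1 OE (−0.97). The genes most like Bnc2 were Tmtc4 (0.980), Rad54l2 (0.976), Prrc2c (0.967), Papln (0.964) and Myt1l (0.962), and on deviations Ankrd17 (0.980), Tmtc4 (0.969), Chd2 (0.968), Ash1l (0.967) and Lysmd4 (0.966). None of these genes near Bnc2 was called. Bnc1 and Bnc2 had an r of 0.705 with each other over the 8 libraries and 0.439 on deviations. All of these values share 8 libraries and their depth. The genes named as most alike were picked as the highest of 15517, so high values follow from the choice and were not tested.

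The log2 fold change of Bnc1 moved little between fits, and that of Bnc2 moved more. Under 8 other analyses the log2 fold change of Bnc1 lay between 1.09 and 1.12, and with each library left out in turn between 1.08 and 1.14. The value of Bnc2 lay between 0.13 and 0.24, and between 0.16 and 0.29. Bnc2 fell to its lowest with sex in the model and reached its highest without AD1 OE replicate 3, the female AD1 OE library.

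**Figure D5:**
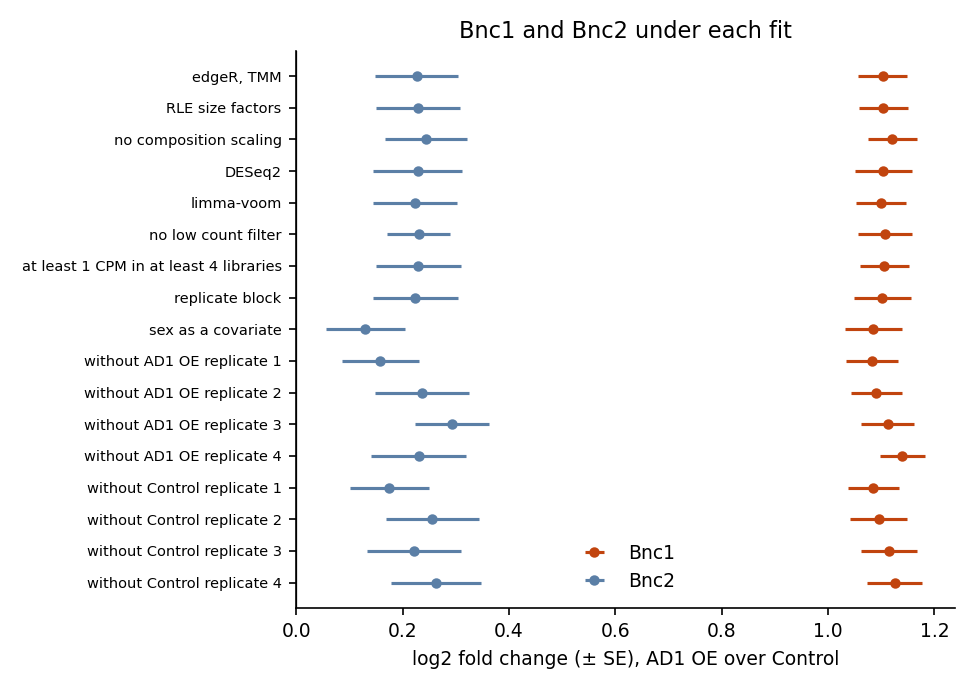
Log2 fold change of AD1 OE over Control with its SE (horizontal axis) for Bnc1 in orange and Bnc2 in blue under each of 17 fits (rows). Bnc1 lies between 1.08 and 1.14 throughout, while Bnc2 moves between 0.13 and 0.29.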

How the data were processed

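Whole DRG of E18.5 embryos were dissected, RNA was extracted with TRIZOL and RNAspin Mini columns, and libraries were made with the Illumina Stranded mRNA kit and sequenced on a NovaSeq6000. The authors demultiplexed with bcl2fastq 2.20.0.422, aligned with STAR 2.7.8a to GRCm39 and counted with featureCounts 2.0.1, and the deposited values are raw counts per Ensembl gene. The strand setting of the counting is not given in the sources used here.

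Groups and replicate numbers were taken from the sample titles. Counts of 8 libraries were filtered with edgeR's filterByExpr, leaving 17721 of 55414 genes, and compared with edgeR 4.0.16 (TMM factors, quasi-likelihood test, Benjamini-Hochberg adjustment over all tested genes, R 4.3.3). Genes were called where the adjusted p was below 0.005 and the log2 difference above 0.25 in size. Alternatives used RLE factors, no scaling, DESeq2 1.42.0, limma 3.58.1 (voom), other filters, a replicate block, a sex term and omission of each library. The fits were tested on simulated data. Names came from GENCODE M21 for 52133 genes, lengths from the same annotation (GRCm38, older than the build counted), and promoter windows from RefSeq, where both members matched. The members and the gene lists were chosen with earlier results of these data known. Genes named were the members, Dach1, Avil, sex-linked genes, called genes of each list (at most 5) or otherwise the 2 most abundant (some are not reported here), the 3 nearest tested genes on each side, the 5 most correlated genes and the 2 next in order on each side of Bnc1. Further marker genes (Isl1, Sox10, keratins, Msln) were named after their values were seen. Counting error at 22339059 to 44025625 counts per library was 1.5% to 3.24% for Bnc1.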

Additional observations from a re-analysis of the deposited data

Results flagged for a closer look

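Among 124 groups of 4 libraries checked, covering 62 named genes, 5 had 1 library far from the others, and chance flags about 1 in 20 groups. Lrrn4 was at 9.22 CPM in Control replicate 2, against 8.21 to 8.37 in the other Control libraries. Sh3gl2, a neighbour of Bnc2, was at 43.6 CPM in Control replicate 1, against 48.6 to 49.1. Stmn2 was at 2230 CPM in the same library, against 2370 to 2380. Reg3b was at 6.48 CPM in AD1 OE replicate 4, against 7.64 to 7.84, and at 3.46 CPM in Control replicate 3, against 2.68 to 2.77. No library of Bnc1 or Bnc2 stood apart in this way.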

How the results depend on the processing

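The log2 fold changes of Bnc1 and Bnc2 kept their direction in all 16 other fits. Against 455 called genes, 139 of them higher, DESeq2 called 228 higher; the cause was not tested. Without a filter on low counts, a fit that tests more genes, 747 were called, 271 higher and 476 lower, with 16 list genes in place of 8. With each library left out, called genes ranged from 289 to 420, higher from 78 to 142, lower from 211 to 309 and list genes from 6 to 10. The lowest totals came without AD1 OE replicate 1 (289 called, 78 higher), and without Control replicate 3 there were 92 higher, fits with fewer samples. The log2 ratio of Bnc2 to Bnc1 per length was −0.82 with merged exons (−0.90 to −0.73 with a library left out), 0.16 with the longest transcript and 1.64 with the mean coding transcript, a change made by the lengths alone.

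The same replicate number in both groups names no shared litter or day, and the correlations of same-numbered libraries' deviations were −0.01, −0.09, −0.02 and 0.38. With the replicate block, 348 genes were called (104 higher, 244 lower), 7 of them in the lists and 0 beside the members, and the log2 fold changes were 1.10 for Bnc1 and 0.22 for Bnc2. AD1 OE replicates 1, 2 and 4 correlated best with Control replicate 4, all male libraries. AD1 OE replicate 3 correlated best with Control replicate 1, both female libraries. The part of sex in these correlations was not tested. Col6a3 lost its call under the block (adjusted p = 0.0233) and with sex as a term (0.0155), both by edgeR. Correlations with the members, with each library left out (chosen after seeing the data), moved by less than 0.1. Those genes were picked for high correlation in the same libraries, so this small movement is no independent check. Sex and group overlap in these libraries, and the depth of 22339059 to 44025625 counts leaves genes below the filter untested, among them Krt5.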
